A study of Danio rerio with 23 samples.

Results

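Neutrophils and macrophages were followed in irradiated zebrafish liver through 10 marker genes, of which 9 were measured. A member was taken as each probe set whose annotated gene symbol was mpx, lyz, mpeg1.1, marco, csf1ra, spi1b, lcp1, coro1a, cybb or ncf1, with the brightest probe set standing for the gene. The macrophage scavenger receptor gene marco had no probe set under its symbol and was not analysed here. These 9 genes were set among 20705 genes with a probe set of their own, on 23 arrays in 8 groups. All fish were 6 months old and all were irradiated, so no group shows the liver without radiation. The sources name the radiation both as γ-irradiation and as X-rays. The first batch received 40 Gy. It held wild-type fish on a normal diet (WT) with radiation alone (R, 2 arrays) or with Oligo-Fucoidan and radiation (OF + R, 2 arrays). It also held HBx,src transgenic fish made obese by diet (diet-induced obesity, DIO) under R (3 arrays) and OF + R (4 arrays). The second batch received 10 Gy and held WT with R (2 arrays), WT with OF + R (2 arrays), and HBx,src,p53- transgenic DIO fish with R (3 arrays) and with OF + R (5 arrays). Oligo-Fucoidan, a low molecular weight seaweed polysaccharide, was given by repeated oral gavage at 300 mg/kg. The methods describe gavage before irradiation and again after it, so OF + R is not pretreatment alone. Both transgenes, the hepatitis B virus X gene and src, are driven by the hepatocyte promoter of fabp10a, and the methods describe the p53- fish as heterozygous. According to the methods the transgenic fish were female, whereas the sex of the WT fish is not given. Genotype and diet always changed together between WT and transgenic fish, and dose and batch did too, so within each of these pairs the effects cannot be told apart. Between the transgenic lines the p53- genotype changed together with dose and batch, and these cannot be told apart either.

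Neutrophils are short-lived granulocytes that kill microbes with granule enzymes and with an oxidative burst. Macrophages, which in the mammalian liver include the resident Kupffer cells, engulf dead cells and debris, and their survival depends on the receptor for colony-stimulating factor 1. Both arise from myeloid precursors under the transcription factor PU.1, and both carry the NADPH oxidase, an enzyme complex that makes superoxide on the membrane of a vacuole holding engulfed material.

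Every value below is a log2 signal deposited by the authors for 1 probe set on 1 array, and each difference is a difference of group means of these signals. Between arrays of the same group Pearson r across all probe sets ran from 0.898 to 0.965. Array medians were 2.02 to 2.21 at 40 Gy and 2.46 to 2.58 at 10 Gy on the log2 scale, so levels were compared only within a batch. All arrays were fitted together in limma, and a gene was called at an adjusted p under 0.05 over all 75212 probe sets. The sources do not state that the arrays of a group came from separate fish, and the p-values then measure only the spread between these arrays. The liver label was borne out by 16 hepatocyte genes, whose mean log2 signal lay between 11.4 and 12.4 on every array. In bulk liver RNA, fewer cells of a type and less RNA per cell cannot be told apart. The yolk protein gene vtg2, induced by oestrogen in female liver, separated some groups. It lay at 13.5 to 13.9 on all 7 HBx,src arrays, at 2.42 to 6.36 on the 4 WT arrays of the 40 Gy batch, at 13.7 and 13.9 in WT R and at 3.96 and 3.18 in WT OF + R of the 10 Gy batch. Among the 5 HBx,src,p53- OF + R arrays it was low on replicates 1 (3.69) and 4 (6.51) and at 13.8 to 13.9 on the other 3, while the 3 R arrays of that genotype had 13.9. The mean of 21 ovary and oocyte genes was 6.85 to 7.05 in WT R of the 10 Gy batch and at most 4.23 on every other array.

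**Figure D1:**
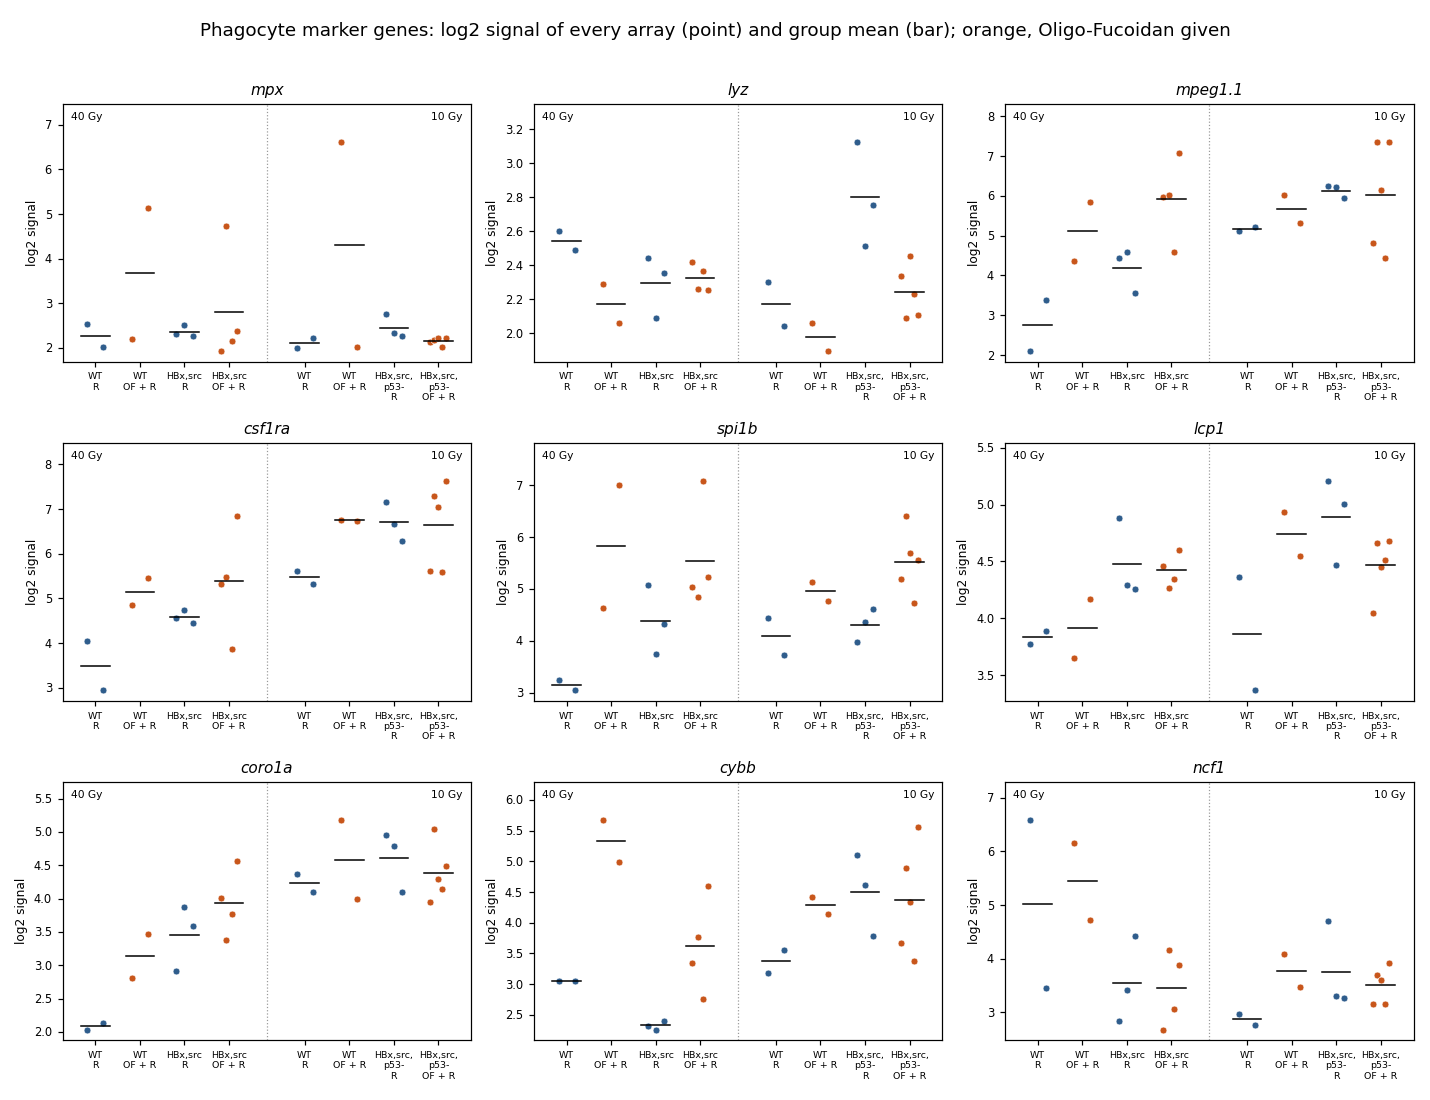
Each panel plots the log2 signal of 1 gene on every array (points, blue without and orange with Oligo-Fucoidan) and the group mean (bar), with the 40 Gy groups left and the 10 Gy groups right of the dotted line. For mpx, 3 of the 23 arrays lie between 4.73 and 6.62 and the other 20 between 1.92 and 2.76, while mpeg1.1, csf1ra, spi1b, ncf1, cybb and coro1a each spread over more than 3 log2 units.

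Oligo-Fucoidan with 40 Gy went with higher mean signals of 8 of the 9 genes in WT fish (7 after quantile normalization). The largest differences were those of spi1b (2.68), mpeg1.1 (2.36) and cybb (2.28), with lyz as the exception (-0.37). The median log2 difference of the 9 genes was 1.40, against 0.07 over all genes tested. No member passed the adjusted threshold in limma (0 of 9, while 4.81% of all genes were called in either direction), and 5 members were higher at an unadjusted p under 0.05, as were 16.4% of all genes. The arrays of OF + R lay wholly above those of R for 5 members, and for 28.3% of all genes. For lyz they lay wholly below, as for 21.1% of all genes. In HBx,src fish the same treatment at 40 Gy gave a median of 0.47 over the members, against 0.01 over all genes. Called members numbered 0 of 9 (2.32% of all genes), 3 were higher at an unadjusted p under 0.05 (11.5% of all genes), and the groups stood apart for mpeg1.1 and cybb, both higher with OF (9.36% of all genes).

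At 10 Gy the WT fish had 8 of 9 members higher with OF, with a median of 0.88 against 0.03 over all genes. None was called (0 of 9, with 9.18% of all genes called in either direction), and only lcp1 was higher at an unadjusted p under 0.05 (11.8% of all genes). For 6 members the OF + R arrays lay wholly above the R arrays, as for 30.3% of all genes. These are the groups whose vtg2 and ovary signals differed, the ovary mean being 6.85 to 7.05 without OF and 2.54 to 2.59 with it. Genes of the oestrogen response of female liver were lower with OF (6 of 7 called), their mean being 11.8 to 12.6 without and 3.25 to 4.39 with it. Erythrocyte genes were called as higher for 11 of 16 (median 1.89), with means of 3.88 to 4.30 and 5.80 to 5.87, and so were 3 of 14 genes of stellate cells and fibroblasts (median 0.57, means of 3.95 to 4.33 and 4.92 to 5.06). Exocrine pancreas genes lay wholly below R for 13 of 13 (26.5% of all genes), with 0 called (median -2.26, means of 6.82 to 7.11 and 4.43 to 5.46). The part of these differences in the members' values was not tested. In HBx,src,p53- fish at 10 Gy only spi1b was higher on average, the median was -0.23 while that of all genes was near 0, and 1 of 9 members was called, lyz, which fell (5.83% of all genes were called in either direction and 3.30% as lower). At an unadjusted p under 0.05, 1 member was higher and 1 lower (11.4% and 10.7% of all genes). Hepatocyte genes were called as higher for 4 of 16 (median 0.57, with 2.54% of all genes called as higher). The median was -3.02 for oestrogen response genes (0 of 7 called) and -0.69 for exocrine pancreas genes (0 of 13 called). Their part in the members' differences was not tested.

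**Figure D2:**
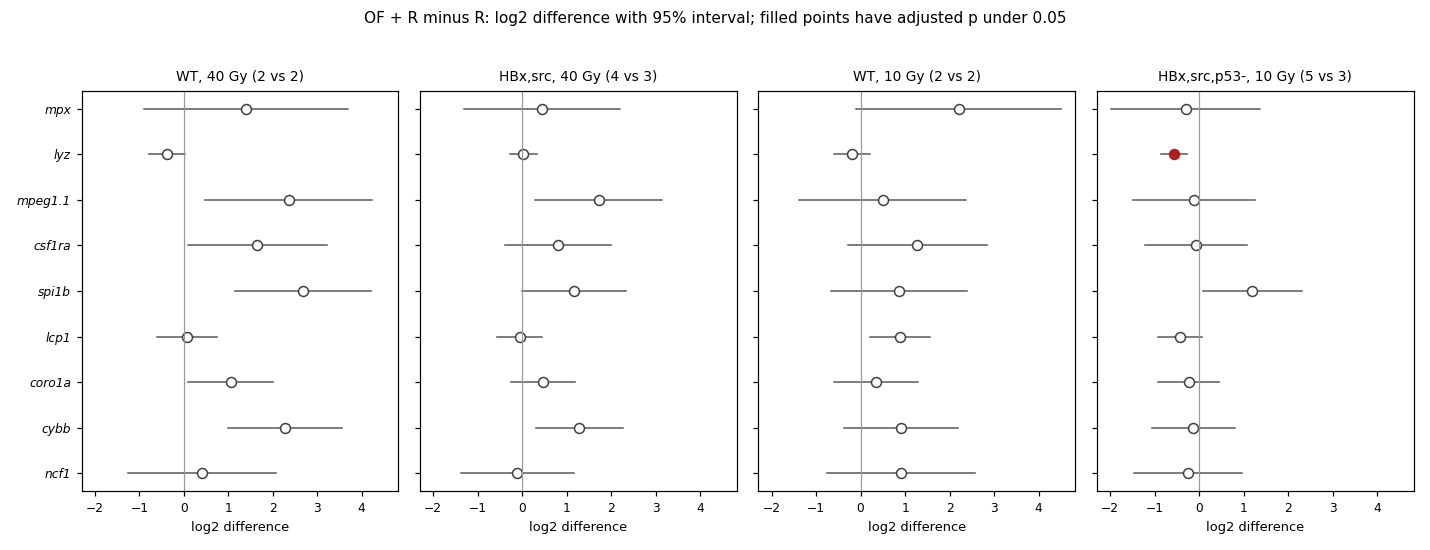
Log2 difference of OF + R minus R (point) with its 95% interval (line) for each gene in the 4 settings, with the number of arrays in each group. Filled points passed an adjusted p under 0.05, which only lyz in HBx,src,p53- fish did (-0.56), while the intervals of mpeg1.1, csf1ra, spi1b, coro1a and cybb in WT fish at 40 Gy lie above 0.

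The macrophage gene mpeg1.1 encodes perforin-2, a pore-forming protein of phagocytes. Its log2 signal in WT at 40 Gy was 2.1 and 3.40 with R and 4.36 and 5.85 with OF + R. Both OF + R arrays lay above both R arrays, and the difference was 2.36 (5.13-fold, SE 0.89, n = 2 and 2, adjusted p = 0.17). The lowest of these 4 values was also the only mpeg1.1 value below its array's median. In HBx,src fish the R arrays had 4.44, 4.58 and 3.55 and the OF + R arrays 5.96, 6.02, 4.59 and 7.09. The lowest OF + R array was barely above the highest R array, and the difference was 1.72 (3.30-fold, SE 0.68, n = 4 and 3, adjusted p = 0.28). At 10 Gy the WT arrays lay close together, with 5.11 and 5.23 for R and 6.01 and 5.32 for OF + R (difference 0.50, SE 0.89, adjusted p = 0.89). With the p53- genotype R gave 6.24, 6.22 and 5.93, whereas OF + R gave 4.82, 7.35, 6.16, 4.43 and 7.35. The mean hardly differed there (-0.11, SE 0.65, adjusted p = 0.97), but the OF + R arrays reached both above and below all R arrays. A second probe set annotated to mpeg1.1 followed the first at r = 0.96 over the 23 arrays and gave differences of 1.79, 2.03, 0.82 and 0.01 in the same order of settings.

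The receptor gene csf1ra encodes the receptor for colony-stimulating factor 1, and in zebrafish it also acts in pigment cells. In WT at 40 Gy it had 4.05 and 2.94 with R and 4.85 and 5.45 with OF + R, without overlap (difference 1.66, 3.15-fold, SE 0.74, adjusted p = 0.25). At 10 Gy the WT arrays again stood apart, with 5.62 and 5.32 for R against 6.75 and 6.74 for OF + R (difference 1.28, 2.42-fold, SE 0.74, adjusted p = 0.44). The HBx,src groups overlapped, since the R arrays at 4.55, 4.74 and 4.44 lay within the OF + R range of 3.87 to 6.84 (difference 0.80, SE 0.57, adjusted p = 0.67). For HBx,src,p53- fish the 3 R arrays at 7.15, 6.67 and 6.29 lay within the OF + R range of 5.60 to 7.63 (difference -0.07, SE 0.54, adjusted p = 0.98). Neither macrophage gene was called in any of the 4 settings.

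Other macrophage genes, 23 measured of 30 listed, were called as higher for 3 and lower for 0 in WT at 40 Gy (4.05% and 0.758% of all genes), with a median of 0.72. They were mpeg1.2, a second perforin-2 gene (3.93, SE 0.81, adjusted p = 0.015), the chemokine gene ccl34a.4 (4.18, SE 1.01, adjusted p = 0.033) and mfap4.1, a macrophage marker of zebrafish larvae (2.42, SE 0.64, adjusted p = 0.049). The haem oxygenase gene hmox1a had the fourth smallest p of that list and a lower mean with OF (-3.28, adjusted p = 0.13). In HBx,src fish 0 of the 23 were called (2.32% of all genes). At 10 Gy in WT fish, slc3a2a (2.13) and ctss2.2 (3.20) rose and ctss2.1 fell by 4.63 (2.60% of all genes were called as higher and 6.58% as lower), the last of these from 8.89 in the R arrays that carried the ovary signal to 4.26 in OF + R. For HBx,src,p53- fish the count was 0 of 23 (5.83% of all genes), and the median was 0.20.

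PU.1, the product of spi1b, is a transcription factor needed to form neutrophils and macrophages. Its gene had 3.24 and 3.04 in WT R at 40 Gy against 4.64 and 7.00 in OF + R. The groups did not overlap and differed by 2.68 (6.40-fold, SE 0.73, adjusted p = 0.054), just outside the threshold. Without the lower OF + R array, replicate 1, the difference was 3.86, and without the higher, replicate 2, it was 1.50. These were the extremes over the arrays left out in turn. Any p-value given with 1 array left in a group takes the spread from the other groups. It assumes that the lone array varies as they do. At 10 Gy in WT fish the values were 4.44 and 3.73 for R and 5.13 and 4.77 for OF + R (difference 0.86, SE 0.73, adjusted p = 0.65). The HBx,src arrays had 5.06, 3.74 and 4.31 with R and 5.03, 4.85, 7.08 and 5.22 with OF + R, which overlapped (difference 1.17, SE 0.56, adjusted p = 0.41). A single array, replicate 3 at 7.08, stood apart from its group, and on that same array mpeg1.1, csf1ra and cybb had the lowest values of the 4. For HBx,src,p53- fish, R gave 3.97, 4.36 and 4.61 and OF + R 5.19, 6.41, 5.68, 4.73 and 5.55. All 5 OF + R arrays lay above the 3 R arrays, by 1.2 on average (2.3-fold, SE 0.53, adjusted p = 0.28). That separation held for 9.16% of all genes. The gene was thus higher on average with OF in each of the 4 settings, by 0.86 to 2.68, and called in none.

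Further myeloid transcription factors, 13 of 15, were measured. In WT at 40 Gy 0 were called (4.81% of all genes) and 5 had a higher mean with OF, with a median of -0.19. Among those with the smallest p, cebpa, which acts in granulocytes and hepatocytes alike, had -2.44 (adjusted p = 0.14) and spi1a, a second PU.1-family gene, had 0.96 (adjusted p = 0.29). At 10 Gy in WT fish spi1a rose by 1.64 (SE 0.46, adjusted p = 0.049), the only call in the list over the 4 settings. In that comparison 9.18% of all genes were called in either direction and 2.60% as higher.

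The members cybb and ncf1 belong to the oxidase. The gene cybb encodes the membrane-bound catalytic subunit of the NADPH oxidase. Its log2 signal was 3.05 on both WT R arrays at 40 Gy and 5.67 and 4.99 with OF + R, a difference of 2.28 (4.85-fold, SE 0.61, adjusted p = 0.0503). Over the arrays left out in turn that difference ranged from 1.94 to 2.62. HBx,src arrays had 2.33, 2.26 and 2.40 with R and 3.35, 3.76, 2.76 and 4.60 with OF + R. These groups did not overlap either and differed by 1.29 (2.44-fold, SE 0.46, adjusted p = 0.22). At 10 Gy the WT arrays had 3.19 and 3.56 with R and 4.42 and 4.14 with OF + R, again apart (difference 0.91, SE 0.61, adjusted p = 0.53). In HBx,src,p53- fish the R arrays at 5.10, 4.62 and 3.78 lay inside the OF + R range of 3.38 to 5.56 (difference -0.13, SE 0.44, adjusted p = 0.94).

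The cytosolic organiser p47phox, which joins the oxidase when the cell is activated, is encoded by ncf1. In WT at 40 Gy it had 6.58 and 3.46 with R and 6.15 and 4.73 with OF + R, so the arrays of each group spread more widely than their means differed (0.42, SE 0.79, adjusted p = 0.85). The HBx,src arrays lay at 2.83 to 4.42 with R and 2.68 to 4.17 with OF + R (difference -0.11, SE 0.60). At 10 Gy the WT arrays had 2.97 and 2.76 with R and 4.08 and 3.47 with OF + R (difference 0.91, SE 0.79, adjusted p = 0.67), and the HBx,src,p53- arrays 3.27 to 4.71 and 3.15 to 3.92 (difference -0.25, SE 0.58). Of 4 other oxidase genes measured of 5 listed, rac2, a small GTPase of the complex, rose in WT at 40 Gy by 2.08 (SE 0.54, adjusted p = 0.044). In that comparison 4.05% of all genes were called as higher. The gene cyba, for the partner subunit of cybb, had 1.1 there (adjusted p = 0.11) and 1.05 in WT at 10 Gy (adjusted p = 0.12). In HBx,src fish it had -0.60 (adjusted p = 0.39), opposite in sign to cybb. The voltage-gated proton channel hvcn1, which balances charge during the burst, had 1.53 in WT at 10 Gy (adjusted p = 0.063) and 0.99 in HBx,src,p53- fish (adjusted p = 0.13). No oxidase gene other than rac2 was called.

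Lcp1 (L-plastin) and coro1a (coronin) bind actin and are present in most leukocytes. In WT at 40 Gy coro1a had 2.04 and 2.14 with R, both below the array medians, and 2.81 and 3.47 with OF + R (difference 1.05, SE 0.45, adjusted p = 0.22). It had 2.91 to 3.87 with R and 3.38 to 4.57 with OF + R in HBx,src fish (difference 0.47, SE 0.34). The 10 Gy groups overlapped, at 4.37 and 4.1 against 5.17 and 3.99 in WT (difference 0.35) and at 4.09 to 4.96 against 3.94 to 5.04 in HBx,src,p53- fish (difference -0.23). The range of lcp1 was narrower, 3.36 to 5.21 over all 23 arrays. Its WT arrays at 40 Gy were 3.77 and 3.89 with R and 3.65 and 4.17 with OF + R (difference 0.08, SE 0.32), and HBx,src fish had -0.06 (SE 0.24). At 10 Gy the WT arrays stood apart, at 4.36 and 3.36 for R and 4.94 and 4.55 for OF + R (difference 0.88, 1.84-fold, SE 0.32, adjusted p = 0.15). Over the arrays left out in turn that difference ranged from 0.38 to 1.38, the latter without R replicate 1, with 1 R array left. A second, dimmer lcp1 probe set (1.24 to 2.22 over all arrays) followed the first at only r = 0.17 and gave 0.05, -0.18, -0.35 and -0.23 in the 4 settings, so the sign in WT at 10 Gy was opposite. The mean over both probe sets gave 0.27 there (SE 0.26, adjusted p = 0.72). Among HBx,src,p53- arrays lcp1 had 4.47 to 5.21 with R and 4.04 to 4.68 with OF + R (difference -0.43, SE 0.23, adjusted p = 0.41).

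Of 28 other pan-leukocyte genes measured of 33, 6 were called as higher and 0 as lower in WT at 40 Gy (median 0.44, with 4.05% and 0.758% of all genes called). The 4 with the smallest p were fcer1gl, an Fc receptor gamma chain-like gene (3.12, adjusted p = 0.0085), the actin regulators arpc1b (2.17, adjusted p = 0.013) and cotl1 (2.2, adjusted p = 0.019), and the beta 2 integrin gene itgb2 (1.81, adjusted p = 0.021). The same integrin gene rose in HBx,src fish by 1.72 (SE 0.30, adjusted p = 0.0086), as the only call of 28 (2.09% of all genes were called as higher). In WT at 10 Gy the only call was itgae.1 (2.06, adjusted p = 0.047), with a median of 0.68 over the list (2.60% of all genes were called as higher), and in HBx,src,p53- fish 0 were called (5.83% of all genes in either direction). Of 21 T and NK cell genes 0 were called in WT at 40 Gy, 5 had a higher mean with OF and 10 lay wholly below R (21.1% of all genes), with a median of -0.25. Of 12 B cell genes 0 were called, with a median of -0.13. The mean log2 signal of the T and NK cell list was 2.04 to 2.14 with R and 2.04 to 2.13 with OF + R there, and that of the pan-leukocyte list 2.51 to 2.69 and 3.32 to 3.63. Of the 21 T and NK cell genes, 9 lay below the array median on every R array and 13 on every OF + R array. Signals this low cannot tell a change in lymphocytes from none. The R arrays also had the higher medians, and centring array medians shifted the median of all genes by 0.15. Exocrine pancreas genes, 13 measured, had a median of -1.69 in that comparison, with mean signals of 4.58 to 5.82 without OF and 3.37 to 3.98 with it, and 0 of them were called. Erythrocyte genes, 16 measured, had a median of -0.29, with 1 called as lower. Genes of the oestrogen response of female liver, 7 measured, had a median of 1.77 there, with 0 called. Their means were 3.87 to 3.93 without OF and 5.51 to 5.68 with it. For 6 of the 7 the OF + R arrays lay wholly above the R arrays (28.3% of all genes). The part of these other genes and cell types in the members' values was not tested.

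The neutrophil markers mpx and lyz had low signals on most arrays. Myeloperoxidase, the product of mpx, makes hypochlorous acid in neutrophil granules. On 12 of the 23 arrays the mpx signal was below the array's median, and 20 arrays lay between 1.92 and 2.76. The remaining 3 arrays had 5.14 (WT OF + R at 40 Gy, replicate 2), 4.73 (HBx,src OF + R, replicate 2) and 6.62 (WT OF + R at 10 Gy, replicate 1). All 3 belonged to fish given OF, as did 13 of the 23 arrays, and in each case every other array of the group was at or below 2.38. Group means therefore rested on 1 array each, with differences of 1.40 (SE 1.09, adjusted p = 0.55) in WT at 40 Gy, 0.44 (SE 0.83, adjusted p = 0.94) in HBx,src fish and 2.2 (SE 1.09, adjusted p = 0.34) in WT at 10 Gy. In WT at 10 Gy the other OF + R array, replicate 2 at 2.01, lay between the R arrays at 2.00 and 2.23. The difference there thus rested on the array at 6.62, and with that array alone in its group it was 4.51. In HBx,src,p53- fish mpx was 2.25 to 2.76 with R and 2.01 to 2.23 with OF + R (difference -0.30, SE 0.80, adjusted p = 0.92). On none of the 3 arrays with high mpx was any of 11 measured neutrophil granule and receptor genes more than 1 log2 unit above every other array of its group. By smaller margins, csf3r, the granulocyte colony-stimulating factor receptor, was above every group mate on all 3 (0.92, 0.15 and 0.69, in the order given above). So was mmp9 (0.53, 0.52 and 0.60). Each other list gene was below a group mate on at least 1 of the 3 arrays. On the array at 6.62 every member was above its group mate, which was not so on the others.

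Lysozyme C, the product of lyz, cleaves bacterial cell walls and marks neutrophils and some macrophages in zebrafish. Its signal was low and narrow in range, 1.89 to 3.13 over all arrays, and below the array's median on 11 of them. In HBx,src,p53- fish it had 3.13, 2.51 and 2.76 with R and 2.33, 2.09, 2.45, 2.23 and 2.11 with OF + R. All 5 OF + R arrays lay below the 3 R arrays, as for 8.56% of all genes, and lyz fell by 0.56 (SE 0.14, n = 5 and 3, adjusted p = 0.037). All 5 OF + R values were below the medians of their arrays, so no fold is given. The call was lost when any of 6 of these 8 arrays was left out, with adjusted p between 0.019 and 0.22 over all 8 omissions. Without both OF + R arrays of low vtg2 the difference was -0.58 (adjusted p = 0.10). In WT at 40 Gy lyz had 2.60 and 2.49 with R and 2.29 and 2.06 with OF + R (difference -0.37, SE 0.19, adjusted p = 0.33). In WT at 10 Gy (-0.19) and in HBx,src fish (0.03) the groups overlapped. A second, dimmer lyz probe set, which correlated with the first at r = 0.50, gave -0.43, 0.03, -0.19 and -0.29 in the 4 settings. In WT at 40 Gy, HBx,src, WT at 10 Gy and HBx,src,p53- fish, 4.81%, 2.32%, 9.18% and 5.83% of all genes were called. Over the list of 11 neutrophil genes measured of 14, 0 were called in each of the 4 settings, and the median lay between -0.14 and 0.12. Up to 7 of the 11, in WT R at 10 Gy, lay below the array median on every array of a group. By unadjusted p the first of them in WT at 40 Gy was csf3r (1.09, SE 0.32, adjusted p = 0.072), and in HBx,src fish il6r, an interleukin 6 receptor gene (0.89, SE 0.23, adjusted p = 0.060). The il6r signal was far above that of its list. It was 8.10 on HBx,src OF + R replicate 2, against list means of 2.85 to 3.36 in that group.

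Genes of inflammatory signalling, 23 measured of 27, gave 0 calls in WT at 40 Gy, in HBx,src fish and in WT at 10 Gy (4.81%, 2.32% and 9.18% of all genes). The medians lay between -0.03 and 0.09. Many of the 23 lay below the array median on every array of a group. These were 7 in both WT groups at 40 Gy, 8 in both HBx,src groups, and 12 (R) and 10 (OF + R) in WT at 10 Gy. Signals this low can hide a change. In HBx,src,p53- fish tgfb1a, encoding transforming growth factor beta 1, rose by 1.04 (SE 0.24, adjusted p = 0.020). It was the only call of the 23 there (2.54% of all genes were called as higher). The interleukin 1 beta gene il1b had 1.41 in HBx,src fish, with an SE of 1.14. Complement opsonin, Toll-like and Fc-like receptor genes, 14 measured of 21, gave 0 calls in all 4 settings (2.32% to 9.18% of all genes). In each group 5 or 6 of the 14 lay below the array median on every array.

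The 2 HBx,src,p53- OF + R arrays with low vtg2, replicates 1 and 4, had the lowest mpeg1.1, csf1ra, spi1b, coro1a, cybb and ncf1 signals of their 5. This was so for mpx too, with all 5 values below the array medians, but not for lyz and lcp1. Their mean mpeg1.1 was 4.63 against 6.95 on the other 3, their mean csf1ra 5.60 against 7.32 and their mean cybb 3.52 against 4.93. With both arrays left out, OF + R minus R was 0.82 for mpeg1.1 (SE 0.56, adjusted p = 0.62), 0.62 for csf1ra (SE 0.51, adjusted p = 0.71) and 0.43 for cybb (SE 0.41, adjusted p = 0.76), each opposite in sign to the value over all 5. The difference of spi1b became 1.57 (SE 0.59, adjusted p = 0.25), and 0 of 9 members were called. Whether the low vtg2 and the low signals of these members are related was not tested.

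**Figure D3:**
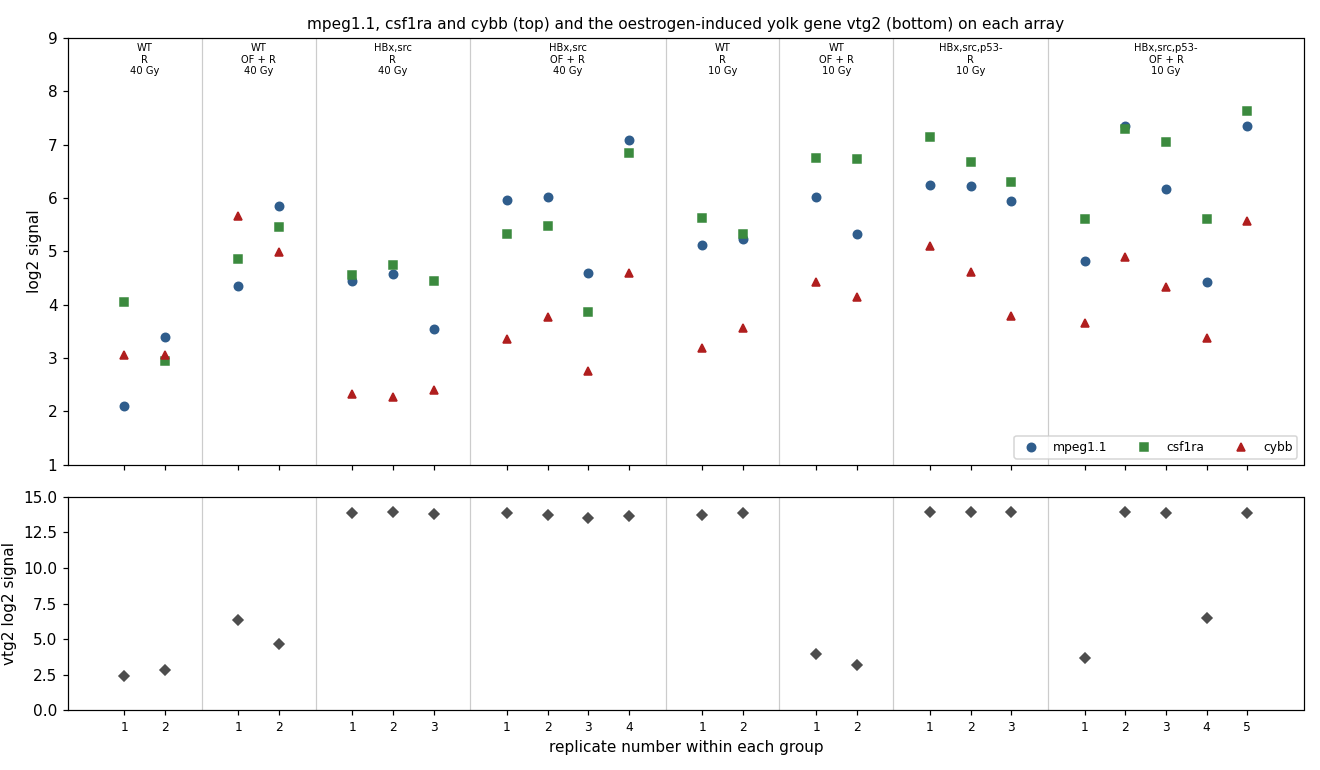
Log2 signals of mpeg1.1, csf1ra and cybb (upper panel) and of the yolk gene vtg2 (lower panel) on each of the 23 arrays, by group and replicate number. The 3 upper genes move together within HBx,src OF + R, where replicate 3 is lowest and replicate 4 highest for all 3, and within HBx,src,p53- OF + R, where the replicates with vtg2 at 3.69 and 6.51 are lowest.

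Whether the response to OF differed between settings was tested directly for 4 pairs of effects, and 0 of 9 members were called in each. The share of all genes called was 6.92% for WT at 40 Gy against WT at 10 Gy, 0.227% for HBx,src against WT at 40 Gy, 6.81% for HBx,src,p53- against WT at 10 Gy and 1.71% for HBx,src against HBx,src,p53-. At an unadjusted p under 0.05 the members numbered 0, 0, 1 and 2 (21.3%, 10.5%, 19.3% and 14.6% of all genes). The difference for lcp1 was -1.31 between HBx,src,p53- and WT at 10 Gy (SE 0.39, adjusted p = 0.089), since its mean was higher with OF in WT and lower in the transgenic fish. Between HBx,src fish at 40 Gy and HBx,src,p53- fish at 10 Gy it was 1.42 for cybb (SE 0.64, adjusted p = 0.45) and 0.58 for lyz (SE 0.20, adjusted p = 0.25). Genotype, dose and batch all differ in that contrast. For spi1b the effect in WT at 40 Gy exceeded that at 10 Gy by 1.81 with a 95% interval of -0.35 to 3.98, and for mpeg1.1 by 1.86 (-0.78 to 4.51), so effects of equal size and effects several-fold apart both remain within the intervals. Effects set against the same WT groups share those arrays.

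The transgenic DIO fish were also compared with WT under the same treatment, on the same arrays as above. At 40 Gy alone, 6 of 9 members had a higher mean in HBx,src fish, with a median of 0.65 against 0.02 over all genes, and 0 were called (2.67% of all genes in either direction). For mpeg1.1, csf1ra, spi1b, lcp1 and coro1a the HBx,src arrays lay wholly above the WT arrays (15.3% of all genes), and for lyz and cybb wholly below (13.1%). The largest of the former was mpeg1.1 (1.44, SE 0.81, adjusted p = 0.44), and coro1a had the smallest p (1.37, SE 0.41, adjusted p = 0.10). Of these, 2 were higher at an unadjusted p under 0.05 (8.82% of all genes). The oxidase genes had lower means in HBx,src fish, by -0.72 for cybb (SE 0.55, adjusted p = 0.62) and -1.47 for ncf1 (SE 0.72, adjusted p = 0.36). The difference of ncf1 rested on the WT array at 6.58, since the other WT array, replicate 2 at 3.46, lay within the HBx,src range of 2.83 to 4.42. With the array at 6.58 alone in its group the difference was -3.03. Genes of the oestrogen response of female liver separated the same groups, with means of 3.87 to 3.93 in WT and 10.7 to 11.7 in HBx,src fish (median difference 7.25, 4 of 7 called as higher). Exocrine pancreas genes had means of 4.58 to 5.82 in WT and 3.56 to 4.43 in HBx,src fish (median -1.21, 0 of 13 called). The part of either in the members' differences was not tested. Of 28 pan-leukocyte genes 2 were called as higher in HBx,src fish and 0 as lower (2.67% of all genes in either direction). They were the CD45 gene ptprc (2.39, adjusted p = 0.020) and fcer1gl (2.52, adjusted p = 0.021). Of 23 macrophage genes 1 was called as higher, the invariant chain gene cd74b (2.36, adjusted p = 0.044), and 1 as lower. The latter was the amino acid transporter subunit gene slc3a2a (-2.3, adjusted p = 0.0087).

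With OF and 40 Gy the members' median was 0.15, while that of all genes was near 0, and 0 of 9 were called (1.41% of all genes). Here both oxidase genes stood wholly below WT (12.8% of all genes), cybb with 2.76 to 4.60 in HBx,src fish against 4.99 and 5.67 in WT (difference -1.71, 0.306-fold, SE 0.52, adjusted p = 0.17). For ncf1 the values were 2.68 to 4.17 against 4.73 and 6.15 (difference -1.99, 0.251-fold, SE 0.68, adjusted p = 0.25). They were the 2 members lower at an unadjusted p under 0.05 (9.35% of all genes). By contrast lcp1 stood wholly above WT (11.0% of all genes), with 4.27 to 4.60 against 3.65 and 4.17 (difference 0.51, SE 0.28, adjusted p = 0.61). The oestrogen response genes again had means of 5.51 to 5.68 in WT and 11.1 to 12.1 in HBx,src fish (median 5.53, 0 of 7 called, all 7 wholly above WT), and their part in the members' differences was not tested. Of 23 macrophage genes 1 was called as lower in HBx,src fish, mfap4.1 (-2.66, adjusted p = 0.026). Another 1 was called as higher, cd74a, a second invariant chain gene (3.32, adjusted p = 0.026). Of 11 neutrophil genes 1 was called, the receptor csf3r, as lower (-1.57, adjusted p = 0.0084). Of 28 pan-leukocyte genes 1 was called, as lower, btk, a kinase of B and myeloid cells (-1.82, adjusted p = 0.049).

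At 10 Gy alone all 9 members had a higher mean in HBx,src,p53- than in WT fish, with a median of 0.89 against 0.01 over all genes. Both lyz (0.63, SE 0.18, adjusted p = 0.035) and lcp1 (1.03, 2.04-fold, SE 0.29, adjusted p = 0.036) were called, 2 of 9, with 13.8% of all genes called in either direction and 5.35% as higher. The lyz signal was 2.51 to 3.13 in the transgenic fish and 2.3 and 2.04 in WT, where both values were below the array medians, and that of lcp1 4.47 to 5.21 against 4.36 and 3.36. The groups stood apart for 7 members (21.9% of all genes), with spi1b and coro1a overlapping. Among these, cybb had 1.12 (SE 0.55, adjusted p = 0.31) and csf1ra 1.23 (SE 0.68, adjusted p = 0.39). Both calls ended without WT replicate 2 (lyz 0.50, adjusted p = 0.29, and lcp1 0.53, adjusted p = 0.50), without transgenic replicate 1 (adjusted p = 0.15 and 0.14) and without transgenic replicate 3 (adjusted p = 0.066 and 0.10). That of lyz also ended without WT replicate 1 (0.76, adjusted p = 0.064). The WT R arrays are those with the ovary signal, whose mean was 2.58 to 3.32 in the transgenic arrays, and exocrine pancreas genes had means of 6.96 to 9.06 in the transgenic and 6.82 to 7.11 in the WT arrays. Their part in the members' differences was not tested. Among 28 pan-leukocyte genes ptprc was called as higher in the transgenic fish (1.73, adjusted p = 0.041). The kinase gene pik3cd was called as lower (-1.48, adjusted p = 0.0090). Among 23 macrophage genes only the cathepsin gene ctss2.1 was called, as lower (-4.24, adjusted p = 0.0010). The shares called, 7.1% and 4.3%, were below the 13.8% of all genes. Of 23 inflammatory genes 1 was called as higher, and of 21 T and NK cell genes 2 were called as lower. With OF and 10 Gy the median was -0.11 and 0 of 9 were called (1.06% of all genes). Only mpx was lower at an unadjusted p under 0.05 (6.24% of all genes), at -2.16 (SE 0.91, adjusted p = 0.45), and only lyz stood wholly above WT (8.12% of all genes, difference 0.27, SE 0.16, adjusted p = 0.70), with all arrays of both groups below their medians. The mpx difference was 0.14 without the WT array at 6.62 and -4.47 (adjusted p = 0.019) without the other WT array. Of 28 pan-leukocyte genes 2 were called, both lower in the transgenic fish (1.06% of all genes in either direction). They were pik3cd and lcp2a (-1.77 each, adjusted p = 0.0092 and 0.013). Here the oestrogen response genes had means of 4.81 to 12.4 in the transgenic and 3.25 to 4.39 in the WT arrays (median 6.40, 1 of 7 called as higher). Erythrocyte genes had 4.28 to 5.45 and 5.80 to 5.87 (median -1.11, 1 of 16 called as lower), and exocrine pancreas genes 5.32 to 8.30 and 4.43 to 5.46 (median 2.36, 0 of 13 called). Their part in the members' differences was not tested.

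**Figure D4:**
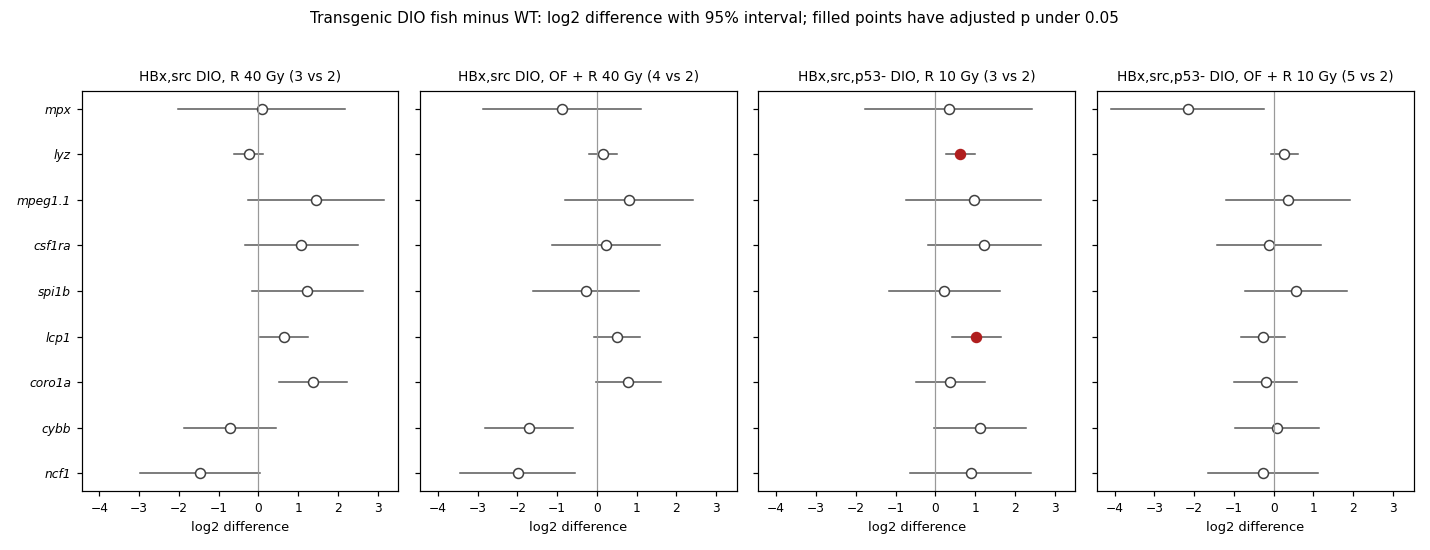
Log2 difference of transgenic DIO fish minus WT fish under the same treatment (point) with its 95% interval (line). Filled points passed an adjusted p under 0.05, as did lyz (0.63) and lcp1 (1.03) at 10 Gy alone, and the intervals of cybb and ncf1 lie below 0 with OF at 40 Gy.

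The members mpeg1.1, csf1ra and cybb varied together in some groups, most widely in HBx,src OF + R and HBx,src,p53- OF + R. In the latter group both arrays of low vtg2 were lowest for all 3. Elsewhere this was not always so. From replicate 1 to 2 of WT OF + R at 40 Gy, mpeg1.1 rose from 4.36 to 5.85 while cybb fell from 5.67 to 4.99. In WT R csf1ra ran opposite to mpeg1.1 at both doses, and in HBx,src R cybb ran opposite to mpeg1.1 and csf1ra. The r values below pool all groups and need not hold in each. After each group's mean was subtracted, csf1ra and cybb correlated at r = 0.83 over the 23 arrays, mpeg1.1 and csf1ra at 0.78, and mpeg1.1 and cybb at 0.73. The leukocyte gene coro1a followed them less closely (0.58 with mpeg1.1, 0.52 with csf1ra and 0.48 with cybb). By contrast spi1b had -0.05 with csf1ra and -0.18 with cybb, and mpx and lyz had -0.02 with each other. The oxidase subunits cybb and ncf1 correlated at 0.46. These values are a description, since genes on an array share its RNA, its scaling and its mix of cells.

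**Figure D5:**
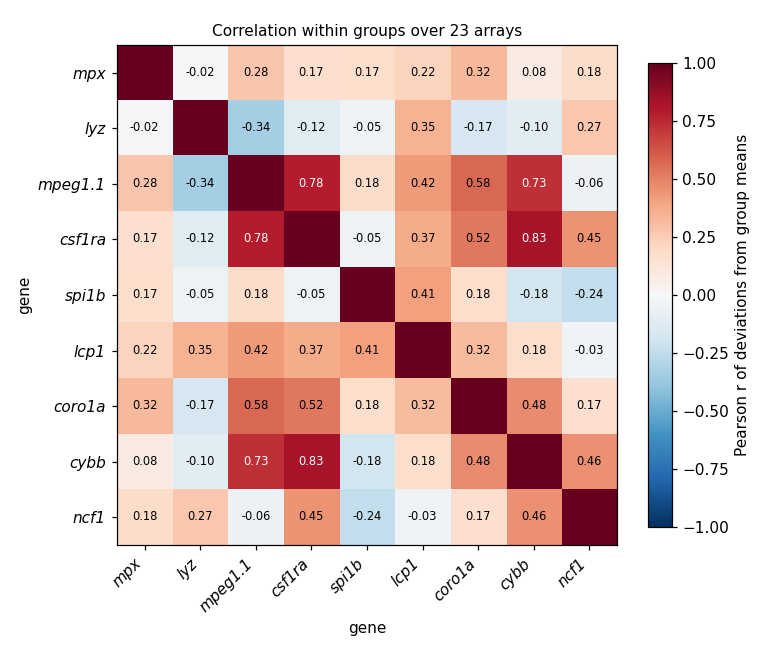
Pearson r between genes of the deviations from group means over 23 arrays, with red for positive and blue for negative values. The block of mpeg1.1, csf1ra and cybb has r of 0.73 to 0.83, whereas mpx and lyz have no value above 0.35 with any other gene.

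The 10 genes outside the members whose signals most resembled the mean of the 9 members, after centring each batch over 23 arrays, were csf2rb (r = 0.85), arpc1b (0.85), sftpbb (0.83), gja13.2 (0.80), grap2b (0.80), olmf4l1 (0.78), cct6a (0.78), c1ql1 (0.78), trpv1 (0.77) and laptm5 (0.77). Of these, csf2rb encodes the shared beta chain of cytokine receptors of myeloid cells and laptm5 a lysosomal protein of blood cells. In WT at 40 Gy, arpc1b rose as given above, olmf4l1 rose by 3.95 (adjusted p = 0.026) and cct6a, a chaperonin subunit gene, by 0.99 (adjusted p = 0.023). There 4.05% of all genes were called as higher. Not called were csf2rb (1.09, adjusted p = 0.42), laptm5 (2.11, adjusted p = 0.053), sftpbb, gja13.2, grap2b, c1ql1 and trpv1 (adjusted p from 0.059 to 0.34 for the last 5). Only batch means were removed before the ranking, so the genes were picked partly by this same difference. Their rise is therefore no separate evidence. Each member was also set against the mean of the other members, itself left out. There r was 0.81 for csf1ra, 0.70 for mpeg1.1 and 0.66 for cybb, but 0.10 for ncf1 and -0.15 for lyz.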

How the data were processed

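Liver RNA was measured on 23 Affymetrix zebrafish gene arrays. The authors deposited log2 signals per probe set, corrected for background and then normalized in the Transcriptome Analysis Console. Its version, summarisation method and annotation build are not named in the sources. The signals were used as they are. Symbols came from the platform annotation, in which 29618 of 75212 probe sets carried 1 gene symbol and 1755 carried several, and the latter were not used to name genes. For 6174 genes with several probe sets the brightest was taken. Promoter sequences were not analysed here.

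Group comparisons used lmFit and eBayes of limma 3.58.1 (R 4.3.3, data.table version 1.17.8) with 8 group means and 15 residual degrees of freedom, with Benjamini-Hochberg adjustment over all probe sets. No array pair was identical (0 pairs). The genes named were all members, up to 4 genes with the smallest p in each other phagocyte list and the 10 genes most like the members' mean, and controls such as vtg2 were added after their values were seen. Calls in the lists were not all named, also where a list had 1 call. The members and lists were chosen with earlier results of these data known. In simulated data a log2 change of 2 was recovered for 48%, 68%, 39% and 70% of 200 altered probe sets in OF + R minus R of WT 40 Gy, HBx,src, WT 10 Gy and HBx,src,p53- fish, and a change of 1 for 1.5%, 7.5%, 0.5% and 14.5%. The altered probe sets were drawn only from those brighter than the median, with independent normal noise. In the data 1033 to 3833 probe sets were called in these comparisons. The rates therefore need not hold for members near the array medians, such as mpx and lyz. Alternatives were fits to the compared groups alone, a replicate block, 3 scalings, a dim filter, a trended prior, array weights, probe set means, adjustment over genes, the methods' fold change of 2 with an unadjusted p under 0.05, and leaving out each array. Another 2, a floor at the array median and leaving out both arrays of low vtg2, were chosen after seeing the data. Figures were drawn with Python 3.11.15 and matplotlib 3.10.9.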

Additional observations from a re-analysis of the deposited data

Results flagged for a closer look

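Of 18 sets of 4 or 5 arrays checked for an array far from the others, 2 were picked out, and chance picks about 1 in 20. In HBx,src OF + R at 40 Gy, mpx was 4.73 on replicate 2, while the nearest of the other 3 arrays had 2.38. In the same group spi1b was 7.08 on replicate 3, and the nearest of the others had 5.22.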

How the results depend on the processing

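With 2 to 5 arrays per group the precision is limited by the number of arrays, and signals of mpx and lyz lay near the array medians. The 0 calls in WT at 40 Gy became 1 (cybb, adjusted p = 0.0496) with the replicate block and 1 (cybb) without dim probe sets. They became 2 (spi1b and cybb) with array medians centred and with adjustment over genes. With the array median as a floor, chosen after seeing the data, they became 3, spi1b and cybb as higher and lyz as lower. By a fold change of 2 with an unadjusted p under 0.05 they became 5, all higher (10.9% of all genes). Centring also shifted the median of all genes there by 0.15. The single call in HBx,src,p53- fish, lyz, became 0 in the fit to the compared groups alone, with the replicate block, quantile normalization over all arrays, the dim filter, the trended prior, probe set means, the floor and both arrays of low vtg2 left out. By the fold change rule, 1 member passed there, spi1b (8.15% of all genes). The 2 calls of HBx,src,p53- against WT at 10 Gy became 0 in the fit to those groups alone, with the block, the trended prior and probe set means, and 1 (lcp1) with quantile normalization over all arrays, the dim filter, the floor and the fold change rule (16.0% of all genes). Quantile normalization over all arrays gave 1 call for HBx,src against WT at 40 Gy, coro1a (adjusted p = 0.013). The fold change rule also gave 3 in HBx,src fish (4.22%), 1 and 2 for HBx,src against WT without and with OF (7.52% and 5.85%), 1 for HBx,src,p53- against WT with OF (4.22%), and 1 and 1 for the differences of effects between HBx,src,p53- and WT (14.2%) and between HBx,src and HBx,src,p53- (8.46%). Adjustment over genes gave 1 for the former, lcp1. Over 26 pairs of same-numbered arrays the deviations from group means had r from -0.13 to 0.15, with 5 over 0.1. Where both groups have 2 arrays, their 2 pairs give the same r by construction. The R and OF + R pairs of the same genotype at 40 Gy were all positive, from 0.05 to 0.15. These values do not settle whether the numbers pair the arrays, and they were not taken to do so. The block changed no call beyond those named. With 1 array left out the calls were 0 to 1 in WT at 40 Gy, in WT at 10 Gy, in HBx,src,p53- fish, for HBx,src against WT at 40 Gy alone, for HBx,src,p53- against WT with OF and for the difference of effects between the last 2, and 0 to 2 for HBx,src,p53- against WT at 10 Gy alone. They remained at 0 in HBx,src fish, for HBx,src against WT with OF and for the other 3 differences. In HBx,src,p53- against WT with OF, mpx ranged from -4.47 to 0.14.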
